A study of Mus musculus with 5 samples.

Results

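Interferon-stimulated genes are the genes that a cell switches on after interferon binds its receptors. A list of 38 mouse genes of this kind was read by symbol from the count table of an injured-retina study, and all 38 were found among its 25655 genes. The retinas came from wildtype C57BL/6 mice of 8 to 10 weeks whose left optic nerve had been crushed (optic nerve crush, ONC), and total RNA of the whole injured retina was taken on day 7. All animals therefore carried the crush. One group of 3 mice received the vehicle DMSO, and the other received Sorbinil, an inhibitor of aldose reductase, at 10 mg/kg by intraperitoneal injection from the day before ONC and daily afterwards. The study excluded a Sorbinil replicate after principal component analysis of its mapped reads, and the deposited counts held no Sorbinil replicate 2. Sorbinil replicates 1 and 3 were compared with DMSO replicates 1, 2 and 3, and retinas without a crush were not analysed here. The comparison therefore asks how the genes differ with Sorbinil after the injury, and not how the crush changed them.

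Type I interferons bind the receptor pair Ifnar1 and Ifnar2, whose kinases Jak1 and Tyk2 phosphorylate transcription factors such as Stat2. A complex that holds Stat2 and Irf9 then binds the interferon-stimulated response element (ISRE), while the type II interferon, through Ifngr1 and Ifngr2, acts mainly on the gamma-activated site (GAS). The products block viral entry, translation and replication, sense viral RNA and DNA, and feed back on the pathway itself. In nervous tissue, microglia, astroglia and endothelial cells are known to express many of these genes after injury.

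The response element was looked for in the promoters of the members, since the promoter sequence does not depend on the counts. The RefSeq promoter table (GRCm38.p6) held 29 of the 38 members. Of these, 12 carried the core of the ISRE (GAAA, any 2 bases and GAAA, read on either strand) within 250 bases upstream of a start site, which is 41.4% of members against 3.46% of the 27025 genes in the table. The GAS (TTCNNNGAA, the same on both strands) was present in 7 of the 29 members, or 24.1%, against 8.13% of all genes. A match of these letters is a description of the sequence and no evidence of binding. The 7 windows below show the motif in Ifit1 and Rsad2, which fell with Sorbinil, in Ifit3, Isg15, Bst2 and Stat2, whose groups overlapped, and the GAS of Irf1. Positions are those of exact matches to GRCm39, each sequence is written 5′ to 3′ on the strand of its gene, and capitals mark the motif. In Bst2 the GAS letters overlap the first of a pair of ISRE cores, which overlap each other.
Ifit1 (chr19:34618165-34618233, plus strand): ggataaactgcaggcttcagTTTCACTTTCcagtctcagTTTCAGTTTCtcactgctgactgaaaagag
Rsad2 (chr12:26506542-26506591, minus strand): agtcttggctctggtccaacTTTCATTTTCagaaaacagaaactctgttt
Ifit3 (chr19:34560753-34560836, plus strand): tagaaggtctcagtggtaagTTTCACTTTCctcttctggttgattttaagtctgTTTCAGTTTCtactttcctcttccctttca
Isg15 (chr4:156285312-156285373, minus strand): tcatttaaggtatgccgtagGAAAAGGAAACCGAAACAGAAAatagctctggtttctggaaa
Bst2 (chr8:71990211-71990272, minus strand): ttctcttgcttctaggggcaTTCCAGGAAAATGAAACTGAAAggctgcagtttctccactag
Stat2 (chr10:128106125-128106174, plus strand): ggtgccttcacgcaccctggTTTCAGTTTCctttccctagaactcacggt
Irf1 (chr11:53660731-53660779, plus strand): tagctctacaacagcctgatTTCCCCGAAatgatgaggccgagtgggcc

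The other members with an ISRE core were Gbp2, Gbp3, Gbp7, Igtp, Irgm1 and Oas1a. Irf7, Irf9, Ifih1, Cmpk2, Trim25, Lgals3bp, Ifitm3 and Oasl2 were in the table without one in this window. So were Dtx3l, Eif2ak2, Herc6, Ifi35, Ifi44, Ifit2, Irf1, Samd9l and Xaf1. An ISRE core stood in 4 of the 6 matched members whose Sorbinil retinas were both lowest, and in 8 of the 23 matched members whose groups overlapped. None of those 6 and 7 of those 23 held the GAS letters.

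The counts on genes totalled between 56096541 and 90288552 per retina. The retinas did not resemble each other equally within a group. Sorbinil replicate 1 stood apart, with 17.4% of the 14992 genes tested at least 2-fold below the DMSO mean, against 0.914% in Sorbinil replicate 3. Rod genes were present at high level in every retina, as in any retina, and their 11 markers summed to between 76389 and 90123 CPM (counts scaled to a common library size by TMM) with DMSO, 125220 CPM in Sorbinil replicate 1 and 65216 CPM in Sorbinil replicate 3. Genes of the Y chromosome marked DMSO replicates 1 and 2 and Sorbinil replicate 1 as male (between 16268 and 17064 counts on 4 genes) and the other two retinas as female (2 and 4 counts). The mice of each group thus differed in sex. The counts and medians of the members are given with and without Sorbinil replicate 1, the retina that stood apart. Leaving it out does not balance sex, since Sorbinil replicate 3, a female, is then set against DMSO retinas of both sexes.

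All 38 members had enough counts to be tested. Relative to DMSO, 37 had a fitted log2 fold change below 0 and 1, Trim25, above 0, while 51.0% of all genes tested were below 0. The median log2 fold change was -0.54 over the members and -0.01 over all genes tested. The study's threshold asks for an unadjusted p-value no higher than 0.1 together with a 2-fold change. By it 5 members fell and 0 rose, against 1.35% of all genes tested that fell. These were Ifit1, Rsad2, Mx2, Gbp2 and Iigp1. With the p-value alone, 11 members passed, all lower, while 4.33% of all genes were lower and 6.98% higher at this p-value. Of these, 8 members had an unadjusted p-value under 0.05, all lower, against 1.78% of all genes.

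After Benjamini-Hochberg adjustment over all genes tested, no member passed 0.05 in edgeR's quasi-likelihood test, the share over all genes was 0.0%, and the smallest adjusted p-value of a member was 0.758. The likelihood ratio test gave 0 members at the adjusted threshold and 9 at an unadjusted p-value under 0.05. The DESeq2 Wald test also gave 0 (0.14% of all genes passed) and 9. For these tests the share of all genes at the unadjusted limit was not counted. In the Wald test the smallest adjusted p-value was that of Ifit1 (0.0818). Both Sorbinil retinas lay below every DMSO retina for 10 members (Ifit1, Mx2, Gbp2, Cmpk2, Usp18, Irgm1, Parp9, Iigp1, Rsad2 and Ifih1), against 10.5% of all genes, and above every DMSO retina for 0 members, against 12.8%. An exact permutation test of 2 against 3 retinas cannot go below 0.1, and 6 of the 10 (Ifit1, Mx2, Cmpk2, Usp18, Irgm1 and Ifih1) reached that value. Without Sorbinil replicate 1, the calls were 2 (Mx2 and Iigp1), against 0.912% of all genes that fell in that fit, and the median log2 fold change was -0.22. In the same fit 6 members were lower at an unadjusted p-value under 0.05 (3.18% of all genes), 0 were lower at the adjusted threshold (0.0%), and 11 lay below every DMSO retina (27.6%). Leaving out Sorbinil replicate 3 instead gave 19 calls, against 17.4% of all genes. There 24 members were lower at the unadjusted limit (26.3% of all genes), 19 at the adjusted one (21.2%), and 31 lay below every DMSO retina (41.6%). Without DMSO replicate 3, 31 members lay below the other DMSO retinas in both Sorbinil retinas, against 18.2% of all genes.

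**Figure D1:**
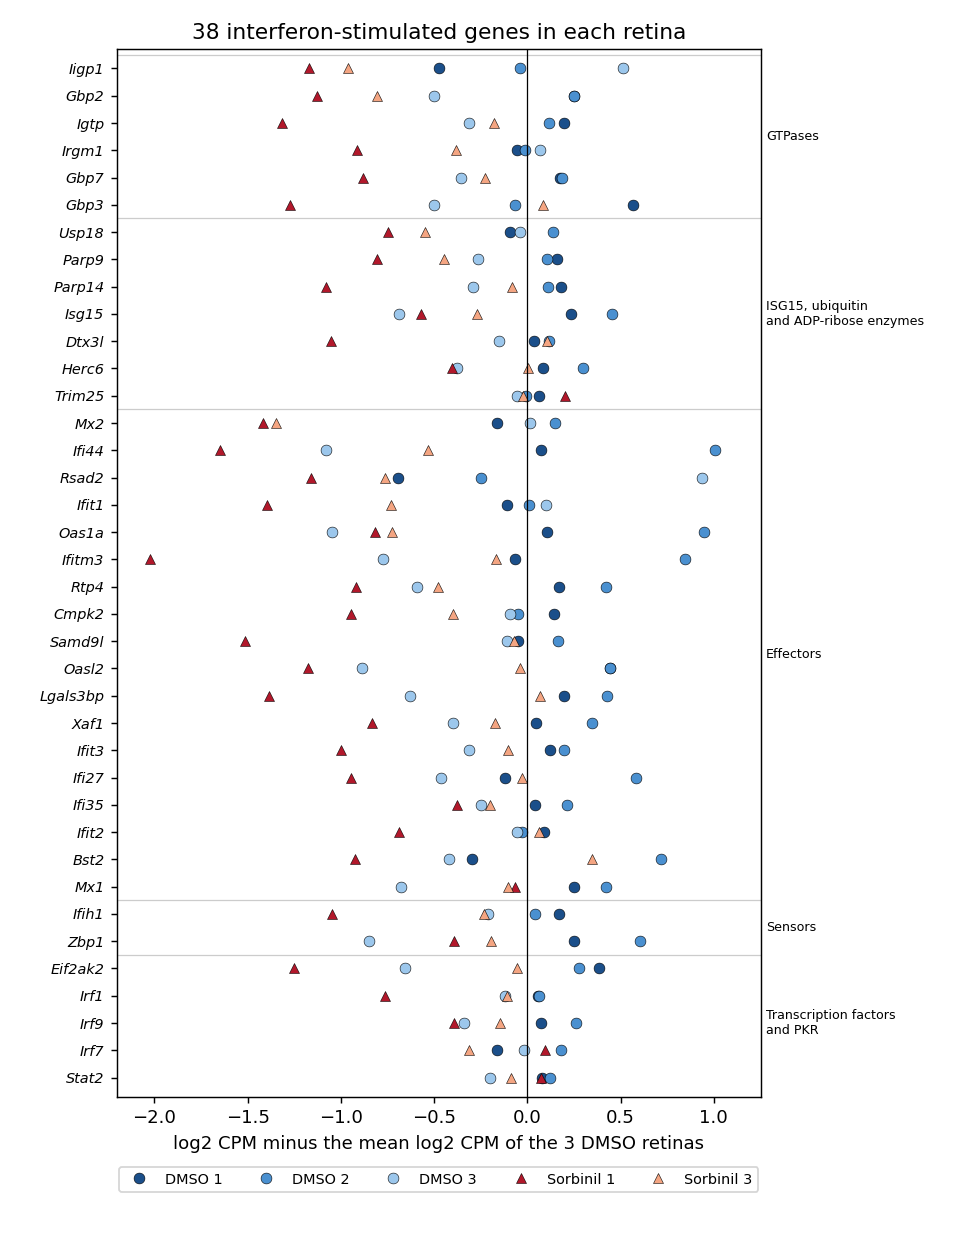
Each row is 1 of the 38 members and each symbol 1 retina. The horizontal axis gives the log2 CPM of the retina minus the mean log2 CPM of the 3 DMSO retinas. Circles are DMSO and triangles Sorbinil retinas. Sorbinil 1 (dark triangles) lies below every DMSO retina in 31 rows and Sorbinil 3 (light triangles) in 11.

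The position of each retina was read for the list as a whole. The median of the members, as log2 CPM minus the DMSO mean, was 0.08 in DMSO replicate 1, 0.18 in DMSO replicate 2 and -0.31 in DMSO replicate 3. For Sorbinil replicate 1 it was -0.93, and for Sorbinil replicate 3 it was -0.18, so that the latter lay between DMSO replicates 1 and 3. Summed over the members, the DMSO retinas held 502, 538 and 378 CPM and the Sorbinil retinas 275 and 416 CPM, in the order of their replicate numbers, which is used throughout. In Sorbinil replicate 1, 16 members lay at least 2-fold below the DMSO mean, against 17.4% of all genes. It was below every DMSO retina for 31 members, where 41.7% of all genes were, and above every DMSO retina for Trim25. Sorbinil replicate 3 was below every DMSO retina for 11 members, where 29.1% of all genes were, and inside the DMSO range for the other 27. Its level exceeded that of Sorbinil replicate 1 for 34 members. Among the DMSO retinas, replicate 3 was the lowest for 31 members, against 39.2% of all genes.

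Levels between genes were compared as FPKM, which divides the count by the exon length in GENCODE vM39. In the DMSO retinas the highest were Ifitm3, which blocks the entry of viruses at endosomes, at 10.7 ± 5.97 FPKM (SD, n = 3), Ifit3 at 10.3 ± 1.85 FPKM and Lgals3bp at 9.43 ± 3.24 FPKM. These neighbours differed by less than the spread between retinas. Trim25 at 6.64 ± 0.279 FPKM, Oasl2 at 6.44 ± 2.81 FPKM, Gbp2 at 5.91 ± 1.60 FPKM and Cmpk2 at 5.62 ± 0.505 FPKM came next. Trim25 lay above Cmpk2 in every DMSO retina, while neighbours in this order overlapped. The 6 lowest were Iigp1, Oas1a, Mx2, Ifi44, Zbp1 and Mx1, from 0.230 FPKM down to 0.0506 FPKM. Mx1 is the mouse antiviral GTPase that most laboratory strains carry as a defective allele. The spread among DMSO retinas was itself wide for several members, with a highest to lowest ratio of 4.52 for Ifi44, 4.13 for Oas1a, 3.11 for Rsad2 and 3.08 for Ifitm3, and of 1.09 for both Irgm1 and Trim25.

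Among the 5 members that regulate the response (transcription factors and the kinase PKR), 0 passed the threshold and all 5 had a fitted value below 0, with a median log2 fold change of -0.29. Stat2, a subunit of the ISRE-binding complex, had the highest mean CPM of the group. Its levels were 27.9, 28.7 and 22.9 CPM with DMSO and 27.7 and 24.9 CPM with Sorbinil. The groups overlapped fully, with a log2 fold change of -0.01 ± 0.15 (SE, edgeR p = 0.937, exact permutation p = 0.9), and the sign turned in 5 of the alternatives. Irf7, the factor that amplifies type I interferon production, was the member besides Stat2 and Trim25 that did not drop in Sorbinil replicate 1. It measured 13.04, 16.6 and 14.5 CPM with DMSO and 15.6 and 11.8 CPM with Sorbinil, a log2 fold change of -0.10 ± 0.19 (edgeR p = 0.609, exact permutation p = 0.6). Irf9, the DNA-binding subunit of the complex, had -0.29 ± 0.21 (edgeR p = 0.226, exact permutation p = 0.4), and Irf1, a factor induced through the GAS, had -0.40 ± 0.26 (edgeR p = 0.169, exact permutation p = 0.2). Eif2ak2, the kinase PKR that halts translation on viral RNA, had the fitted value farthest from 0 in the group at -0.60 ± 0.47 (edgeR p = 0.247, exact permutation p = 0.4), with 10.1, 9.41 and 4.91 CPM in the DMSO retinas against 3.25 and 7.47 CPM. Sorbinil replicate 3 exceeded DMSO replicate 3 for this gene. In GENCODE vM39, 22 of the 38 members overlap another annotated gene, and 11 overlap one that codes for protein (Ifit1, Rtp4, Parp9, Dtx3l, Igtp, Irf7, Irf9, Eif2ak2, Ifi27, Ifi35 and Oas1a). Whether strand was used in the counting is not given in the sources used here, so reads of the shared stretches may have been assigned to either gene. Igtp overlaps Irgm2 and Irf9 overlaps Rnf31 on the same strand, where counting by strand would not separate the reads.

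Both sensors of viral nucleic acid, Ifih1 and Zbp1, had fitted values below 0. Ifih1 (MDA5, a sensor of long double-stranded RNA) stood at 14.9, 13.6 and 11.4 CPM in the DMSO retinas and at 6.39 and 11.3 CPM in the Sorbinil retinas. The groups did not overlap, but Sorbinil replicate 3 lay just under the lowest DMSO retina. The log2 fold change was -0.59 ± 0.28 (edgeR p = 0.0827, exact permutation p = 0.1), short of 2-fold. Zbp1, which senses Z-form nucleic acid and triggers cell death, was scarce, with 0.270 to 0.788 CPM in the DMSO retinas and 0.380 and 0.442 CPM in the Sorbinil retinas, which lay inside that range.

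The 18 antiviral effectors all had fitted values below 0, with a median log2 fold change of -0.62. Of these, 3 fell past the threshold (Ifit1, Mx2 and Rsad2), against 1.35% of all genes. At an unadjusted edgeR p-value of at most 0.1, 5 were lower, against 4.33% of all genes. Ifit1 is a protein that binds viral RNA lacking host cap methylation and so blocks its translation. Its levels were 12.3, 13.4 and 14.2 CPM in the DMSO retinas and 5.04 and 7.99 CPM in the Sorbinil retinas. The DMSO retinas lay close together and both Sorbinil retinas well below them, with a log2 fold change of -1.03 ± 0.24 (edgeR p = 0.00561, exact permutation p = 0.1), the smallest p-value among the members. Ifit1 overlaps Ifit1bl2 on the opposite strand. It lost the 2-fold limit without DMSO replicate 3 (-0.98) and without Sorbinil replicate 1 (-0.72), though not the p-value limit.

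Mx2, an interferon-induced gene of the dynamin-like GTPase family, had the largest fitted fall of the members. Its counts were few, with 52, 54 and 34 reads in the DMSO retinas and 11 and 15 in the Sorbinil retinas. These correspond to 0.538, 0.676 and 0.612 CPM against 0.209 and 0.221 CPM. The Sorbinil retinas nearly coincided, and the log2 fold change was -1.49 ± 0.35 (edgeR p = 0.00599, exact permutation p = 0.1). Mx2 was called whichever retina was left out, with a log2 fold change between -1.57 and -1.41. It was also the one member that lay at least 2-fold below the DMSO mean in Sorbinil replicate 3, where 0.914% of all genes did. Mx1, its neighbour on chromosome 16, had 0.197, 0.225 and 0.0900 CPM with DMSO and 0.152 and 0.147 CPM with Sorbinil, a log2 fold change of -0.22 ± 0.53 (edgeR p = 0.691, exact permutation p = 1).

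Rsad2 (viperin), an enzyme that makes a chain-terminating nucleotide, stood at 3.72, 5.08 and 11.6 CPM in the DMSO retinas and 2.68 and 3.54 CPM in the Sorbinil retinas. The groups did not overlap, but DMSO replicate 3 was far above the other retinas, and the gap between the lowest DMSO and the highest Sorbinil retina was small. The log2 fold change was -1.12 ± 0.53 (edgeR p = 0.0810, exact permutation p = 0.2). Without DMSO replicate 3 it was -0.50 and without Sorbinil replicate 1 it was -0.92, and the p-value limit was missed both times. Cmpk2, a mitochondrial nucleotide kinase encoded beside Rsad2 on chromosome 12, had 26.8, 23.4 and 22.7 CPM with DMSO and 12.6 and 18.3 CPM with Sorbinil. The Sorbinil retinas were both lowest, with a log2 fold change of -0.65 ± 0.20 (edgeR p = 0.0194, exact permutation p = 0.1), under the 2-fold limit. DMSO replicate 3 was thus the highest of its group for Rsad2 and the lowest for Cmpk2. Rtp4, a chaperone of receptors that also binds viral RNA, measured 4.47, 5.34 and 2.63 CPM with DMSO and 2.09 and 2.84 CPM with Sorbinil. Sorbinil replicate 3 lay above DMSO replicate 3, so the groups overlapped (log2 fold change -0.75 ± 0.37, edgeR p = 0.0896, exact permutation p = 0.3).

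Lgals3bp, a secreted glycoprotein, had the highest mean CPM of the effectors. It measured 54.4, 63.8 and 30.7 CPM in the DMSO retinas and 18.1 and 49.7 CPM in the Sorbinil retinas. Within each group the retinas differed widely, and the log2 fold change was -0.55 ± 0.50 (edgeR p = 0.315, exact permutation p = 0.5). Ifitm3 and Oasl2, named after their values were seen for their spread, followed a similar order of retinas. Ifitm3 had 11.7, 22.1 and 7.18 CPM with DMSO and 3.01 and 11.0 CPM with Sorbinil (log2 fold change -0.97 ± 0.69, edgeR p = 0.210, exact permutation p = 0.4). Oasl2, a synthetase-like protein of the OAS family, had 51.4, 51.4 and 20.4 CPM against 16.7 and 36.7 CPM (-0.62 ± 0.51, edgeR p = 0.274, exact permutation p = 0.5). In all 3 genes Sorbinil replicate 1 was lowest, DMSO replicate 3 next and Sorbinil replicate 3 above it.

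The remaining 9 effectors did not pass, and their groups overlapped. Ifi44 and Oas1a had fitted values past 2-fold (-1.27 ± 0.74 and -1.02 ± 0.61), with unadjusted edgeR p-values of 0.137 and 0.151 and an exact permutation p of 0.4 for each. Both were scarce, with DMSO levels of 0.755, 1.46 and 0.324 CPM for Ifi44 and 1.35, 2.45 and 0.594 CPM for Oas1a. Ifit2 and Ifit3, which lie beside Ifit1 on chromosome 19 and encode related proteins, had -0.27 ± 0.24 and -0.50 ± 0.31 (edgeR p = 0.320 and 0.155, exact permutation p = 0.4 and 0.3). Ifit2 stood at 14.2, 13.1 and 12.8 CPM with DMSO and 8.28 and 13.9 CPM with Sorbinil, so it was low in Sorbinil replicate 1 while Sorbinil replicate 3 lay inside the DMSO range. Ifit3 has a near-identical copy, Ifit3b, between which reads can be split, and its value is uncertain for that reason. Bst2 (tetherin), which holds budding virions at the cell surface, had -0.25 ± 0.52 (edgeR p = 0.654, exact permutation p = 0.7), and its sign turned in 3 alternatives. Ifi27, Ifi35, Samd9l and Xaf1 ranged from -0.62 to -0.30, with edgeR p-values from 0.180 to 0.294 and exact permutation p-values from 0.2 to 0.5.

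The 7 members of ISG15, ubiquitin and ADP-ribose transfer, which are 6 enzymes and Isg15 itself, had a median log2 fold change of -0.50, with 6 below 0, and 0 passed the 2-fold limit. Usp18, the protease that removes ISG15 and restrains the type I receptor, measured 4.39, 5.15 and 4.55 CPM in the DMSO retinas and 2.78 and 3.20 CPM in the Sorbinil retinas. The groups were clearly apart, with a log2 fold change of -0.65 ± 0.21 (edgeR p = 0.0214, exact permutation p = 0.1). Parp9, an ADP-ribosyltransferase, stood at 12.6, 12.1 and 9.32 CPM against 6.41 and 8.22 CPM, again without overlap (-0.63 ± 0.22, edgeR p = 0.0280, exact permutation p = 0.2). Parp9 and its partner Dtx3l, an E3 ubiquitin ligase, lie head to head on opposite strands of chromosome 16 (Parp9 at chr16:35758840-35792980 and Dtx3l at chr16:35746881-35759521, GRCm39) and overlap, so reads of the shared stretch cannot be assigned without strand. Dtx3l had 15.5, 16.4 and 13.6 CPM with DMSO and 7.29 and 16.3 CPM with Sorbinil, and it was low in Sorbinil replicate 1 alone (-0.36 ± 0.34, edgeR p = 0.334, exact permutation p = 0.4).

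Trim25, the ubiquitin ligase that activates the RNA sensor RIG-I, had the highest mean CPM of these members and the one fitted value above 0. It measured 39.9, 38.0 and 36.7 CPM in the DMSO retinas and 43.9 and 37.5 CPM in the Sorbinil retinas. The log2 fold change was 0.09 ± 0.12 (edgeR p = 0.488, exact permutation p = 0.5), and its sign turned with scaling by library size and without Sorbinil replicate 1. Isg15, the ubiquitin-like modifier itself, had 3.65, 4.25 and 1.91 CPM with DMSO and 2.07 and 2.56 CPM with Sorbinil, so both Sorbinil retinas lay inside the DMSO range (-0.50 ± 0.39, edgeR p = 0.252, exact permutation p = 0.5). Usp18 and Isg15 therefore had similar fitted values, and only for Usp18 were the retinas of the groups apart. Parp14 had -0.51 ± 0.33 (edgeR p = 0.171, exact permutation p = 0.3) and Herc6, the ligase that attaches ISG15, had -0.22 ± 0.27 (edgeR p = 0.462, exact permutation p = 0.5).

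All 6 guanylate-binding and immunity-related GTPases were below 0, with a median log2 fold change of -0.64. Of the 6, 2 (Gbp2 and Iigp1) fell past the threshold, against 1.35% of all genes. The GTPases of these families act on the vacuoles of intracellular pathogens. Gbp2, a guanylate-binding protein that coats such vacuoles, had the highest mean CPM of the group, with 17.5, 17.5 and 10.4 CPM in the DMSO retinas and 6.72 and 8.40 CPM in the Sorbinil retinas. Sorbinil replicate 3 lay under DMSO replicate 3, the lowest of its group, and the log2 fold change was -1.002 ± 0.29 (edgeR p = 0.0136, exact permutation p = 0.2). This value sat at the 2-fold limit, and the call was lost in several alternatives, among them without the filter on low counts (-0.9997), with a term for sex (-0.91) and without DMSO replicate 1 (-0.89), DMSO replicate 2 (-0.88) or Sorbinil replicate 1 (-0.84). The GTPase Iigp1 measured 1.00, 1.36 and 2.02 CPM in the DMSO retinas and 0.609 and 0.707 CPM in the Sorbinil retinas. Here DMSO replicate 3 was the highest of its group, and the log2 fold change was -1.14 ± 0.40 (edgeR p = 0.0310, exact permutation p = 0.2), or -0.84 without that retina.

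Irgm1, a regulator of the other GTPases of its family, was among the steadiest members in the DMSO retinas at 12.3, 12.7 and 13.4 CPM, against 6.77 and 9.80 CPM in the Sorbinil retinas. The groups were apart, with a log2 fold change of -0.63 ± 0.20 (edgeR p = 0.0233, exact permutation p = 0.1), under the 2-fold limit. Gbp7 had 10.3, 10.4 and 7.11 CPM with DMSO and 4.93 and 7.78 CPM with Sorbinil (-0.54 ± 0.29, edgeR p = 0.111, exact permutation p = 0.3). Sorbinil replicate 3 was above DMSO replicate 3, so the groups overlapped. Gbp3, which lies between Gbp7 and Gbp2 on chromosome 3, had -0.51 ± 0.50 (edgeR p = 0.349, exact permutation p = 0.5), and Igtp had -0.66 ± 0.37 (edgeR p = 0.130, exact permutation p = 0.3). The guanylate-binding genes are related in sequence, and reads that fit more than 1 of them may have been split.

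**Figure D2:**
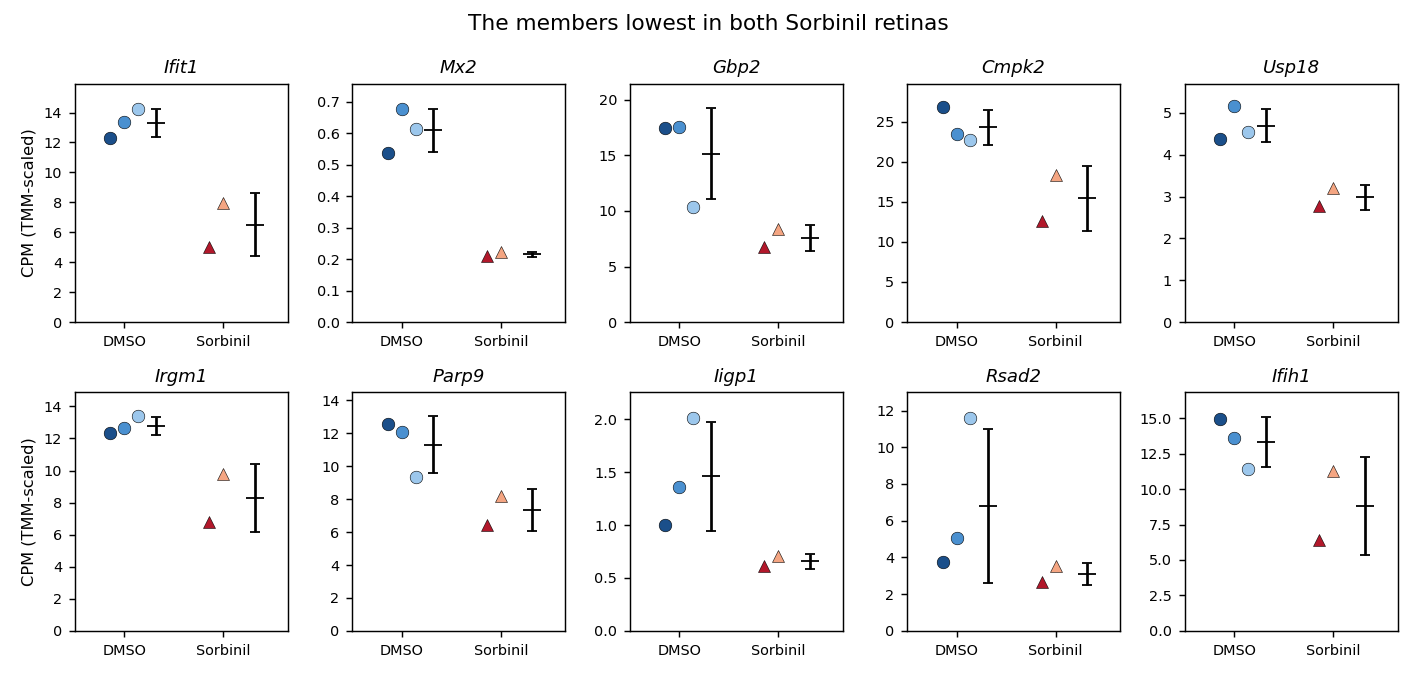
Each panel is 1 of the 10 members whose Sorbinil retinas were both below every DMSO retina. The vertical axis is CPM scaled by TMM and starts at 0, symbols are retinas (circles DMSO, triangles Sorbinil, dark to light by replicate number), and the bars give the mean ± SD of 3 DMSO and 2 Sorbinil retinas. The groups are widely apart for Mx2 and Ifit1, while for Rsad2 the DMSO retinas run from 3.72 to 11.6 CPM and for Ifih1 the nearest retinas are 11.3 and 11.4 CPM.

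The 2 Sorbinil retinas differed in how far the members lay below DMSO. Over the 10 members without overlap, the median log2 difference from the DMSO mean was -1.09 for replicate 1 and -0.64 for replicate 3. Over the other 28 it was -0.90 and -0.10. The 10 members were chosen for being lowest in both Sorbinil retinas, so their lower medians are no separate result. Since DMSO replicate 3 and Sorbinil replicate 3 were both female, the members were also set against each other within each sex. In the females, Sorbinil replicate 3 was above DMSO replicate 3 for 27 of 38 members, where 50.4% of all genes were, with a median difference of 0.13. The 10 members without overlap were below by construction, with a median of -0.48, and of the other 28 only Irf7 was below. Between the males, Sorbinil replicate 1 was below both DMSO replicates for 36 members, where 44.9% of all genes were, with a median difference of -1.09 from their mean. DMSO replicate 3 in turn had a median difference of -0.47 from the mean of the male DMSO retinas, and 7 members were at least 2-fold lower in it, against 1.44% of all genes. The female comparison has 1 retina a side and allows no test. With sex as a term, a fit chosen after the data were seen, 4 members were called lower (Ifit1, Rsad2, Mx2 and Iigp1), against 1.62% of all genes, and 36 had a value below 0.

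**Figure D3:**
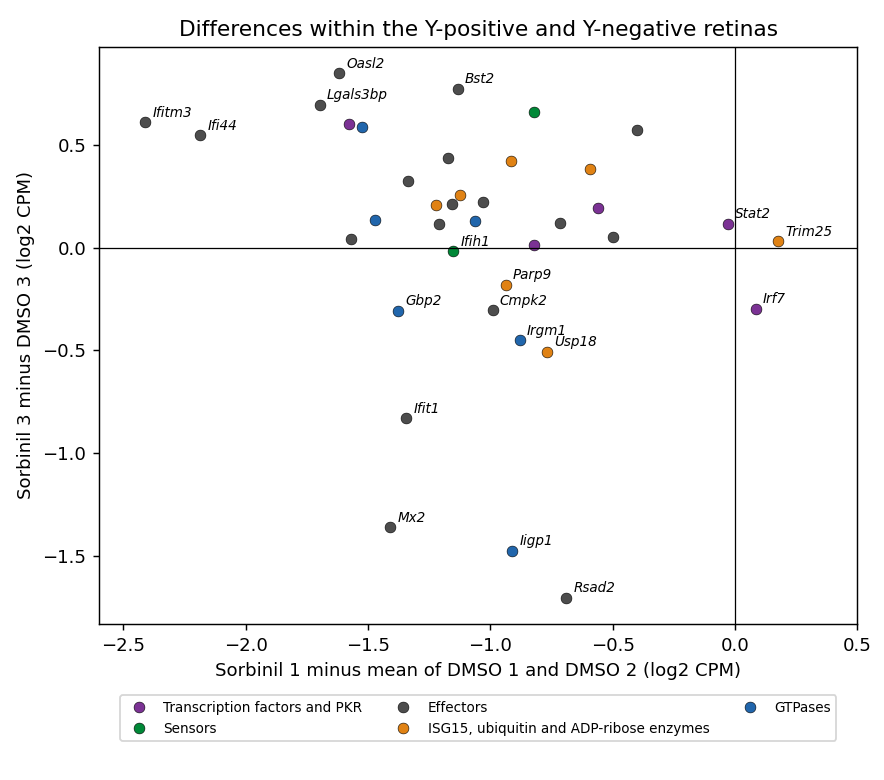
Each point is 1 of the 38 members, coloured by role. The horizontal axis is the log2 CPM of Sorbinil 1 minus the mean of DMSO 1 and DMSO 2 (Y-positive retinas), and the vertical axis is Sorbinil 3 minus DMSO 3 (Y-negative retinas). Most points lie left of 0 and 27 lie above 0, with Rsad2, Iigp1, Mx2 and Ifit1 the lowest on the vertical axis.

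The signalling genes upstream of the members lay on both sides of 0. Of 41 listed symbols, 38 were in the table and 31 were tested, with 16 fitted values below 0 and 15 above. None was called at the threshold, where 1.71% of all genes were, and the median log2 fold change was -0.00. The interferon genes on the list were Ifnb1, Ifng, Ifnk, Ifne, Ifnl2 and Ifnl3, and the Ifna genes were not on it. Those listed had 0 counts in every retina, apart from 1 count of Ifnb1 in Sorbinil replicate 3. A count of 0 still allows up to 3 counts in a library, so differences in their transcripts were not detectable at this depth. The receptor subunits Ifnar1 (52.2, 48.7 and 49.1 CPM against 55.6 and 45.2 CPM) and Ifngr1 (38.9, 39.1 and 43.2 CPM against 44.9 and 37.7 CPM) overlapped between groups. Their relatives Ifnar2 (9.69, 7.89 and 5.65 CPM against 3.80 and 7.37 CPM) and Il10rb (4.23, 3.88 and 2.18 CPM against 1.62 and 3.06 CPM) were lowest in Sorbinil replicate 1, with Sorbinil replicate 3 inside the DMSO range. Their log2 fold changes were -0.47 ± 0.37 and -0.55 ± 0.42 (adjusted p = 0.758 for each in edgeR's test). The kinase Jak1 had 161, 154 and 151 CPM against 155 and 156 CPM. Pias1, a SUMO ligase that restrains interferon signalling, was the one gene of this list with a p-value of at most 0.1. It was higher, at 189 and 131 CPM with Sorbinil against 104, 121 and 117 CPM with DMSO (log2 fold change 0.49 ± 0.18), and did not reach 2-fold, with an adjusted p = 0.758 in edgeR's test. Cgas was below the filter on low counts.

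Interferon-regulated genes outside the member list were counted in the same way. Of 70 listed, 63 were tested, 53 had a fitted value below 0 and the median log2 fold change was -0.54, equal to that of the members. At the threshold 7 fell and 0 rose, against 1.35% of all genes that fell. These were Ifi47, Ifi203, Gbp5, Tgtp1, Sp110, Slfn5 and Slfn9. Ifi47, a GTPase related to Iigp1, had the smallest p-value, at 0.796, 1.33 and 0.936 CPM in the DMSO retinas and 0.228 and 0.309 CPM in the Sorbinil retinas (log2 fold change -1.91 ± 0.40, adjusted p = 0.758 in edgeR's quasi-likelihood test). Both Sorbinil retinas were lowest for 16 of the 63, against 10.5% of all genes. Cxcl10, a chemokine that interferon induces, had a fitted value of 0.06, with 0.641, 1.01 and 2.61 CPM against 0.818 and 2.09 CPM, and its groups overlapped. As with the members, the median of this list was lower in Sorbinil replicate 1 (-0.80) than in Sorbinil replicate 3 (-0.11). Unlike that of the members, its summed level was highest in Sorbinil replicate 1. The sums were 885, 965 and 836 CPM with DMSO and 1011 and 809 CPM with Sorbinil. An ISRE core stood in 26 of the 55 of these genes in the promoter table, or 47.3%.

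Markers of cell types that can express these genes were counted beside the members. Of 16 microglial markers, 15 had fitted values below 0, with a median log2 fold change of -0.53. They summed to between 216 and 319 CPM in the DMSO retinas and to 142 and 238 CPM with Sorbinil, and none was at 0. All 12 endothelial markers were below 0, with a median of -1.47, and 7 of them were called lower, against 1.35% of all genes. Both Sorbinil retinas were lowest for 9 of the 12, against 10.5% of all genes. The groups overlapped for Pecam1 (log2 fold change -0.24), Kdr (-0.34) and Flt1 (-0.69). The sums were 311 to 484 CPM with DMSO and 164 and 412 CPM with Sorbinil. Taken by retina, the endothelial medians were -2.17 (replicate 1) and -0.85 (replicate 3) with Sorbinil, and the microglial medians -0.99 and -0.15. Müller glia markers (8 genes) were below 0 with a median of -0.54, at -1.46 and 0.04 in the same retinas. Pericyte markers (6 genes) had -0.59, at -1.46 and 0.04, and retinal ganglion cell markers (8 genes) had -0.73, at -1.42 and -0.22. Of 8 markers of monocytes and macrophages, 4 were tested, with sums of 10.8 to 19.9 CPM with DMSO and 7.69 and 14.9 CPM with Sorbinil. Of 6 markers of T and NK cells, 1 was tested, Cd8a, with 23, 24 and 14 counts with DMSO and 19 and 16 with Sorbinil. Cd4 had 12, 7 and 8 counts against 10 and 6. Nkg7 had 3 counts in DMSO replicate 1, 1 in Sorbinil replicate 1 and 0 elsewhere. Cd3e, Cd3g and Ncr1 were at 0 in every retina but DMSO replicate 2 (4, 2 and 1 counts). Mitochondrially encoded genes took 1.94% to 2.66% of the counts with DMSO and 3.70% and 4.05% with Sorbinil. The part of these differences in the levels of the members was not tested, and in RNA of a whole retina fewer cells of a type and less RNA per cell cannot be told apart.

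**Figure D4:**
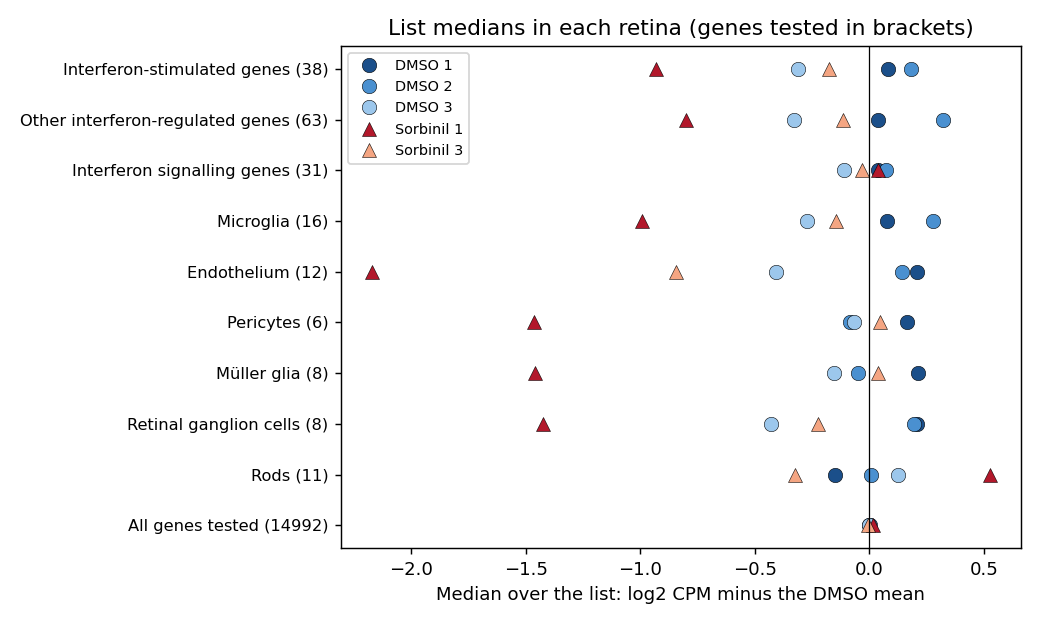
Each row is a list of genes with the number tested in brackets, and each symbol the median over that list in 1 retina, as log2 CPM minus the mean of the 3 DMSO retinas. Circles are DMSO and triangles Sorbinil retinas. The medians of Sorbinil 1 are the lowest of the 5 retinas for the members and the other interferon-regulated genes. The same holds for every cell type list shown but rods. The median of the signalling genes lies near 0 in all retinas. Of these 31 genes, 13 lie below every DMSO retina in Sorbinil 1 and 12 above.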

How the data were processed

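Total RNA of whole injured retinas (3 DMSO, 2 Sorbinil, 1 mouse each) was sequenced. The deposited values are raw counts per gene. The authors obtained them by adaptor trimming and mapping to GRCm39 in CLC Genomics Workbench. The labels describe reverse-stranded libraries, but whether the counting used strand, or how it treated reads on several genes, is not given in the sources used here. Depth was 56096541 to 90288552 counts per retina. No 2 retinas were alike within sampling noise (lowest chi-square divided by its degrees of freedom, 25.5). Reads were not tagged by molecule, so the true error exceeds counting error. Value columns not matched to a retina numbered 0.

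Genes were filtered with filterByExpr (minimum count 10), scaled by TMM and tested by the quasi-likelihood method of edgeR 4.0.16 (limma 3.58.1, R 4.3.3), with Benjamini-Hochberg adjustment over 14992 genes. In the text, "edgeR p" is the unadjusted p-value of this test, and the SE is the log2 fold change over the square root of F. Log2 CPM used a prior count of 2. FPKM was computed here from exon lengths of GENCODE vM39. Exact permutation tests (two-sided, on log2(CPM + 0.01)) covered all 10 groupings. Calls followed the study's threshold. Values in every retina were given for members with a p-value of at most 0.1, up to 12 in all by p-value, and for the member of highest mean CPM in each role. The members and lists were chosen with earlier results of these data known. Among the listed signalling genes the symbols Rigi, Mb21d1 and Tmem173 were not matched. They are other names of Ddx58, Cgas and Sting1, which were also listed and were found. Among the other interferon-regulated genes Mnda and Parp13 were not matched, and Parp13 is another name of Zc3hav1, which was found. The steps were tested on simulated data.

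Alternatives were no filter or a stricter one, scaling by DESeq2 1.42.0 size factors, by upper quartiles or by library size, the likelihood ratio test of edgeR, the Wald test of DESeq2, a block for the replicate number, different thresholds, and omission of single retinas. A sex term, from 4 Y-linked genes, was chosen after the data were seen. The level of 1 gene of the interferon pathway list is not reported here.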

Additional observations from a re-analysis of the deposited data

How the results depend on the processing

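The number of members called was between 4 and 6 under every filter, scaling and other test tried (0.842% to 1.64% of all genes called lower). With the replicate block it was 2 (Ifit1 and Rsad2, against 1.02% of all genes). With no fold limit it was 11, all lower, against 4.33% of all genes. Leaving out each retina in turn gave 2 to 19 called members, 3 to 24 below the unadjusted limit of 0.05, 0 to 19 with an adjusted p-value under 0.05, 10 to 32 whose groups do not overlap (31 without DMSO replicate 3, all lower, against 18.2% of all genes) and a median log2 fold change from -1.02 to -0.22. The highest of these counts came from leaving out Sorbinil replicate 3. The 32 members without overlap were then 31 below and 1 above every DMSO retina, where 41.6% of all genes were below. With all 5 retinas in the fit, Sorbinil replicate 1 was below every DMSO retina for 6248 and above for 6509 of 14992 genes. Without Sorbinil replicate 1, 11 members were below and 1 above every DMSO retina, where 27.6% of all genes were below. With all 5 retinas, Sorbinil replicate 3 was below for 4367 of the 14992 genes and above for 4094. The 8 members below the unadjusted limit became 5, 3 and 7 without DMSO replicates 1, 2 and 3. The share of all genes below it was not counted for these fits, for scaling by library size or for the replicate block. A lone Sorbinil retina was assumed to vary like the DMSO retinas. Scaling by library size gave 5 members below that limit and moved the median of all genes to -0.11.

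The replicate block left 1 member below the unadjusted limit of 0.05 and a median of -0.46. It ended the calls of Mx2 (-1.41), Gbp2 (-0.844) and Iigp1 (-1.12). Retinas of the same number did not deviate together (r of -0.243 and -0.125 across genes). With 2 Sorbinil retinas the crossed numbers give the same values with the sign turned, so this check is weak. The labels tie no retinas by number, but those numbered 1 were both male and those numbered 3 both female.

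The fitted sign turned for Stat2 (0.0539 with the block, 0.0329 with a sex term, -0.109 to 0.0643 with retinas left out), Bst2 (0.0750 with the block, -1.03 to 0.263), Mx1 (0.119 with the block), Trim25 (-0.0237 by library size, -0.0159 to 0.203), Irf7 (-0.311 to 0.0879), Ifit2 (-0.689 to 0.0689), Lgals3bp (-1.45 to 0.0107), Dtx3l (-1.06 to 0.112) and Gbp3 (-1.36 to 0.0201). None of these 9 had passed the threshold with all 5 retinas. Beyond the fewer retinas and genes that an alternative leaves, the cause was not tested. The SE was largest for Ifi44 (0.738), Ifitm3 (0.685) and Oas1a (0.614).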
